A study of Mus musculus with 99 samples.

Results

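Hearts of A/J, BALB/cJ and SEA/GnJ mice were compared with those of the other 25 classical inbred strains of the series. The members were chosen by strain label alone: these 3 strains are related through the Bagg albino stock, and they make up 3 of 28 classical strains and 3 of 99 arrays. The 25 comparison strains are all remaining strains that are not recombinant inbred lines (BXD, AXB, BXA or BXH), CAST/EiJ or B6cC3-1/KccJ. Every heart came from a male fed chow, untreated and 16 weeks old by the protocol; a separate age label increases almost steadily through the deposited samples, from 16 up to 113 weeks, and was not used. RNA from each strain was hybridised to 1 Affymetrix HT_MG-430A array. With no replicate arrays, errors and p-values reflect how far strains differ from each other, array noise among it, and the number of arrays limits the precision. The comparison strains are not independent of each other either, since several share ancestors.

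As background, BALB/cJ descends from Bagg's albino mice, A/J from a cross of Bagg albino mice with another albino stock, and SEA/GnJ from a BALB/c cross that carried short ear, a mutation of the bone morphogenetic protein gene Bmp5. Inbred strains are homozygous at nearly every locus, so a transcript that differs by a cis-acting variant often takes 2 separate levels among strains. A/J is also a parent of the AXB and BXA recombinant inbred families, each a homozygous mosaic of A/J and C57BL/6J, which carry its alleles on other arrays. The BXD families are mosaics of C57BL/6J and DBA/2J and do not descend from A/J. They can still share an allele with A/J where C57BL/6J or DBA/2J has it. The labels BXD29-Tlr4<lps-2J>/J and BXD24/TyJ-Cep290<rd16>/J name mutations of Tlr4 and Cep290, and both arrays were used among the BXD families.

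Of 11725 genes with a named probe set, 7513 passed the filter on dim genes, and all 3 strains carried the cardiomyocyte markers of the labelled tissue at a mean of 12.66 to 12.74 log2 units against 12.68 to 12.82 in the other 25. Markers of other organs were present in some hearts: A/J was 1 of 8 classical arrays, with 7 of the 25, whose mean on such a list exceeded that of the median array by over 2 log2 units, with airway and lung markers at 5.70 log2 units against a median of 3.75 in the 25. The liver list was at 5.43 in BALB/cJ, second to RIIIS/J at 5.76. The difference between the 3′ and 5′ control probe sets of Gapdh, a measure that moves with RNA quality, was -0.47 in BALB/cJ, -0.47 in SEA/GnJ and -0.37 in A/J, and between -0.42 and -0.17 in the 25. BALB/cJ and SEA/GnJ thus lay below every comparison strain on it. The same difference for Actb was 1.55, 1.67 and 1.81 in BALB/cJ, SEA/GnJ and A/J and 1.63 to 2.51 in the 25. The part of these measures in the results was not tested beyond the values given below.

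In the Bagg albino related hearts 3 transcripts differed from the rest past the test's threshold. Slc25a51, the mitochondrial NAD+ carrier, and Phkg1, the catalytic gamma subunit of muscle phosphorylase kinase, which activates glycogen breakdown, were lower. Tsnax, the translin-associated factor that takes part in RNA processing with translin, was higher. These were the only genes of 7513 called by limma at a Benjamini-Hochberg adjusted p under 0.05, which is 0.0399% of the genes tested (1 higher, 0.0133%, and 2 lower, 0.0266%), and the median difference over all genes was -0.01. At an unadjusted p under 0.05, 455 genes (6.06%) passed.

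Slc25a51 was at 7.27 in BALB/cJ, 7.31 in A/J and 7.32 log2 units in SEA/GnJ, against a lowest of 7.70 (C3H/HeJ), a median of 8.31 and a highest of 9.12 among the other 25. The 3 levels lay within 0.1 of each other and below all 25. The difference was -1.01 with a standard error (SE) of 0.14 on the log2 scale, a 2.01-fold lower level (limma, adjusted p = 0.000485, n = 3 and 25). It stayed called without any one of the 3 strains, with adjusted p from 0.00892 to 0.0169. The gene's dimmer probe sets did not repeat this: the second, at a mean of 5.88, was higher in the 3 strains by 0.57, and the third, at 4.45, lower by -0.33. With the mean of the probe sets the difference was -0.26 and the adjusted p 0.530, so the lower level rests on the brightest probe set.

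Phkg1 was at 3.27 in SEA/GnJ, 3.44 in A/J and 4.25 in BALB/cJ, against 3.80, 5.81 and 6.40 log2 units as the lowest, median and highest of the 25. Of the 25, SM/J (3.80) and LG/J (3.98) overlapped them, and the remaining 23 lay from 5.05 upwards. The difference was -2.01 (SE 0.38), or 4.04-fold lower (limma, adjusted p = 0.0225), and -2.33 by the gene's other probe set. The A/J and SEA/GnJ levels lay under 3.59, the level of the filter on dim genes, so the size of the fold is uncertain. Phkg1 passed that filter on its mean over all arrays. The call was lost without A/J (-1.90, adjusted p = 0.145) and without SEA/GnJ (-1.82, adjusted p = 0.293). With the Gapdh control difference as a covariate the adjusted p was 0.0589.

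Tsnax was at 8.74 in BALB/cJ, 8.73 in A/J and 8.57 log2 units in SEA/GnJ, against 7.92, 8.18 and 8.56 as the lowest, median and highest of the 25. The groups did not overlap, but SEA/GnJ lay only 0.0035 log2 units above I/LnJ. The difference was 0.48 (SE 0.09), or 1.39-fold (limma, adjusted p = 0.0225), and 0.52 by a dimmer probe set. It was not called when any one of the 3 strains was left out, with adjusted p from 0.0625 to 0.313. Egln1, the prolyl hydroxylase that marks hypoxia-inducible factor for breakdown, is the neighbour of Tsnax in the RefSeq gene order. It was at 10.06, 10.05 and 10.35 in BALB/cJ, A/J and SEA/GnJ against a median of 10.66, and its difference of -0.51 was not called (adjusted p = 0.349). When every probe set was tested by itself, a dimmer one of Egln1 passed at -0.73 (limma, adjusted p = 0.0490).

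The promoters of Phkg1 and of its near neighbour Nipsnap2 are shown because these genes stood apart in opposite directions in the same hearts. Each window holds the 250 bases before and the 50 after the RefSeq start in GRCm38.p6, printed 5′ to 3′ on the gene's own strand, and capitals mark CCAAT and GGGCGG on either strand. Phkg1 is on the minus strand at chr5:129879039-129879338 and Nipsnap2 on the plus strand at chr5:129724825-129725124.
Phkg1: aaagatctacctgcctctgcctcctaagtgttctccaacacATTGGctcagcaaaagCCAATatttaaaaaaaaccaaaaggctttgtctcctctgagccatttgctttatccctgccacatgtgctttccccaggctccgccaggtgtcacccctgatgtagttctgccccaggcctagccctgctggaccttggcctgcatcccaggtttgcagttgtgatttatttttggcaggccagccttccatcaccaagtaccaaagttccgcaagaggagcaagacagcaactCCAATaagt
Nipsnap2: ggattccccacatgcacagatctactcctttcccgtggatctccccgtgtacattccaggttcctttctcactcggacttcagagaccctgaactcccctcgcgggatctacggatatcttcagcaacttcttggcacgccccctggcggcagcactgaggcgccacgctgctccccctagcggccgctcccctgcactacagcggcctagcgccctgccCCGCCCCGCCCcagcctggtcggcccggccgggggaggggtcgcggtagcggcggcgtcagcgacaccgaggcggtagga
The Phkg1 window held 3 matches to CCAAT and none to GGGCGG, with a GC content of 50.0%. The Nipsnap2 window held no CCAAT and 2 matches to GGGCGG, with a GC content of 67.3%. Among 32851 promoter windows of this length, 37.4% held CCAAT and 35.7% held GGGCGG, so each match is a common one, and neither window held TATAAA, which 13.6% held. The sequences are those of the reference, C57BL/6J, and not of the 3 strains.

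Nipsnap2, a mitochondrial protein, was at 10.61 in BALB/cJ, 10.96 in A/J and 10.86 log2 units in SEA/GnJ, against 8.41, 9.14 and 11.01 as the lowest, median and highest of the 25. Its difference of 1.60 (SE 0.33), or 3.02-fold, missed the threshold (limma, adjusted p = 0.0624). It passed with the 60th percentile filter (adjusted p = 0.0460), the Actb covariate (0.0428), the title number as covariate (0.0461) or every probe set tested by itself (0.0499), and over the alternatives its adjusted p ran from 0.0428 to 0.404. The same SM/J and LG/J hearts that were low in Phkg1 were high in Nipsnap2, and the other 23 strains reached at most 9.82. In the gene order of the reference, 3 genes lie between them: Psph, Cct6a and Sumf2. Psph, the phosphatase of serine synthesis, was at 4.01, 4.54 and 4.45 in BALB/cJ, A/J and SEA/GnJ against a median of 3.97, with no call (0.32, adjusted p = 0.848). Cct6a and Sumf2 were not analysed here. Outside the pair, Mrps17 differed by 0.01 and Chchd2 by -0.08, neither called.

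The other 6 of the 10 genes with the smallest adjusted p were not called either. Lrig1, a restraint on receptor tyrosine kinases, was at 5.09, 5.15 and 5.10 in BALB/cJ, A/J and SEA/GnJ and at 5.22 or more in all 25 others (difference -0.56, adjusted p = 0.0872). Trafd1, a negative regulator of innate immune signalling, was at 5.96, 6.08 and 6.05 against 6.19 or more (-0.70, adjusted p = 0.0872). Peli1, an E3 ubiquitin ligase of toll-like receptor signalling, was at 6.43, 6.59 and 6.17 against 6.61 or more (-0.54, adjusted p = 0.0872). All 3 genes therefore separated the groups without overlap while missing the threshold. Pign, an enzyme of glycosylphosphatidylinositol anchor synthesis, differed by 0.47, Bloc1s1, a subunit of a lysosome-related organelle complex, by -0.30 and Tbc1d8 by -0.53, with adjusted p of 0.102, 0.119 and 0.137. With the mean of a gene's probe sets the differences of Peli1, Pign and Tbc1d8 shrank to -0.26, 0.24 and -0.28.

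**Figure D1:**
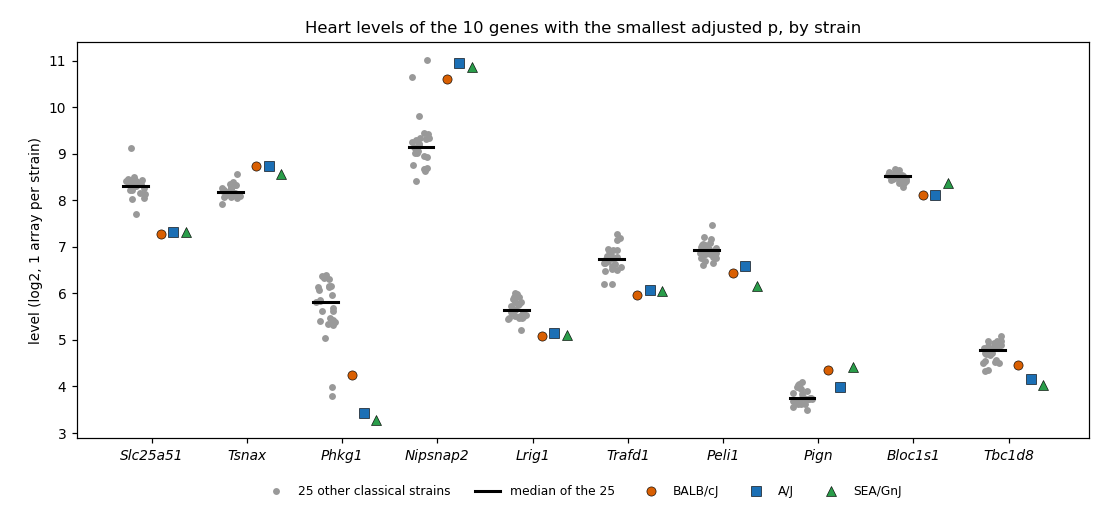
Levels (log2) of the 10 genes with the smallest adjusted p in each of the 28 classical strains, 1 array per strain; grey points are the 25 other strains, the bar is their median, and coloured symbols are BALB/cJ, A/J and SEA/GnJ. Slc25a51 is low in all 3, and 2 grey points of Phkg1 and of Nipsnap2 (SM/J and LG/J) lie with the 3.

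In 13 genes, 0.173% of those tested, the 3 strains lay wholly outside the range of the 25; these and the genes of the next paragraph were chosen after their values were seen. The 8 low ones were Bcat2, Rps6, Slc25a51, Trafd1, Lrig1, Peli1, Cav2 and Igsf10, and the 5 high ones Arf1, Elavl1, Tsnax, Prkar1a and Msrb1. Bcat2, the mitochondrial branched-chain aminotransferase, was at 4.65, 4.59 and 4.53 in BALB/cJ, A/J and SEA/GnJ against a median of 5.86 and a highest of 8.94. Because the 25 are so spread, its difference of -1.61 had an adjusted p of 0.779. Prkar1a, the regulatory subunit of protein kinase A, was at 11.20, 11.04 and 10.87 against at most 10.86 (0.56, adjusted p = 0.275). Msrb1, a selenoprotein that reduces oxidised methionine, was at 10.22, 9.87 and 9.78 against at most 9.68 (0.96, adjusted p = 0.431). The widest gap of the 13 was that of Slc25a51, at 0.38 log2 units, and 4 of the 5 high genes cleared the comparison strains by less than 0.04.

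The largest difference of all tested genes was that of Baiap2l1, which encodes an I-BAR domain protein of actin-rich membrane protrusions. It was at 11.03 in BALB/cJ, 10.72 in A/J and 10.69 log2 units in SEA/GnJ, against 4.98, 5.92 and 10.98 as the lowest, median and highest of the 25. Its level took 2 separate ranges: C3H/HeJ, CBA/J, PL/J and NON/ShiLtJ lay with the 3 strains at 10.57 to 10.98, and the other 21 lay between 4.98 and 6.68. The difference of 4.16 (SE 1.03) was therefore not called (limma, adjusted p = 0.184), and a dimmer probe set gave 3.87. Among all genes, 29 (0.386%) differed by at least 1 log2 unit in size.

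The AXB and BXA families gave 26 arrays or array means that the strain comparison did not use. At each of these genes a family carries either the A/J or the C57BL/6J allele. No genotypes were used, so families were sorted by level alone. A/J itself is 1 of the 3 strains, so these families speak for A/J and not for BALB/cJ or SEA/GnJ. Phkg1 fell into 2 ranges in them: 18 of 26 families were nearer A/J (3.44) than C57BL/6J (5.84), at 3.66 to 4.29, and 8 were at 5.43 to 6.06. Nipsnap2 did the same the other way round, with 18 families at 10.42 to 11.17 and 8 at 9.00 to 9.63. The 18 families were the same ones for both genes, with no family split. Of the 18, 16 were also nearer A/J for Psph. Baiap2l1 was at 10.23 to 11.06 in 16 families and at 5.71 to 6.42 in the other 10. Trafd1 was nearer A/J in 19 families, at 5.71 to 6.45 against 6.70 to 7.17 in the remaining 7. Of the 18 families nearer A/J for Phkg1, 17 were also nearer it for Trafd1 and 14 for Baiap2l1. Between Phkg1 and these genes 3 and 6 of the 26 families were split. The 5 genes thus shared most families, so their recurrence here and their differences from BXD are not independent of each other.

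Slc25a51 and Tsnax, whose parents differ by less than 1 log2 unit, were less clear. Slc25a51 was nearer A/J (7.31) than C57BL/6J (8.03) in 7 of 26 families, at 6.90 to 7.64, while the other 19 reached from 7.91 to 8.98 and so went well above the C57BL/6J array. Tsnax was nearer A/J in 13 families, but its levels from 7.95 to 8.93 left no gap, with the sets meeting at 8.39 and 8.42. Egln1 ran opposite to Tsnax over the 26 families, with a Pearson r of -0.75 given as a description, since the families share their panel and differ in RNA quality.

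**Figure D2:**
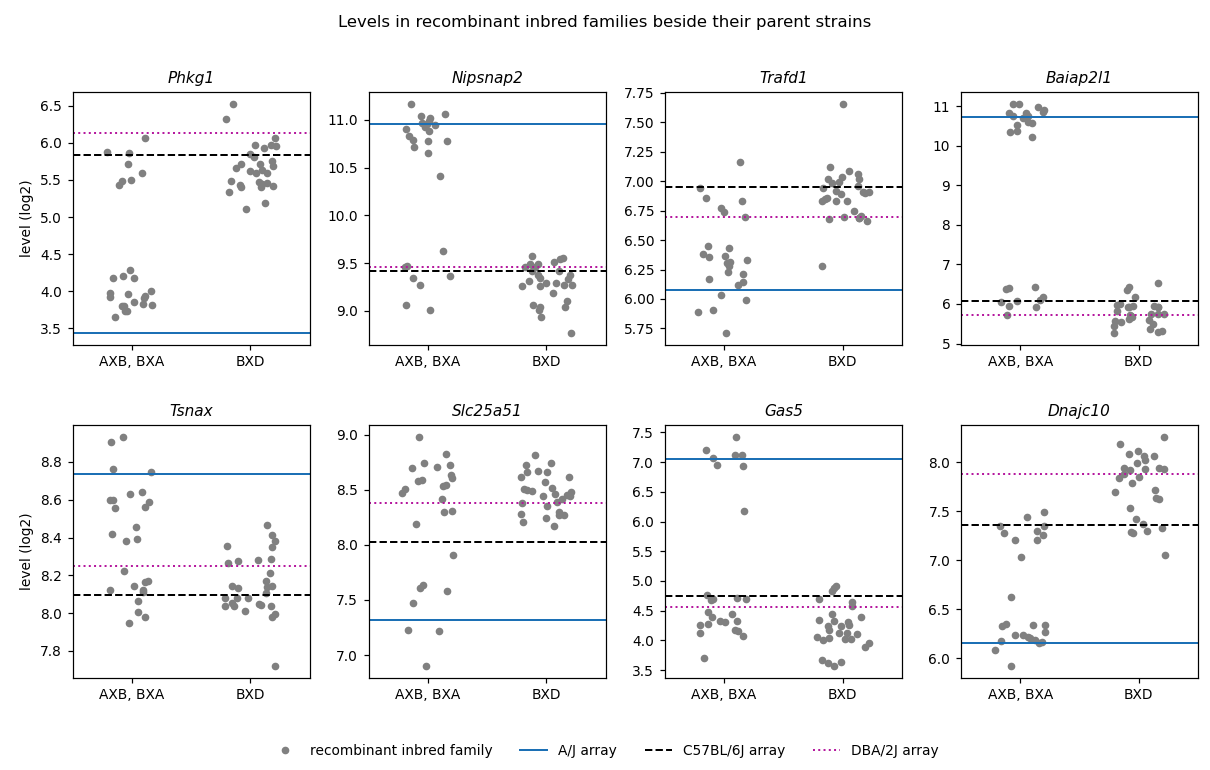
Levels (log2) of 8 genes in the 26 AXB and BXA families and the 29 BXD families (points, jittered sideways), with the arrays of A/J, C57BL/6J and DBA/2J as lines. Phkg1, Nipsnap2, Baiap2l1, Gas5 and Dnajc10 take 2 separate ranges in AXB and BXA, near the A/J line and near the C57BL/6J line. BXD lies near the latter in these genes except Dnajc10, where most BXD families lie nearer the DBA/2J line.

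Set against the 29 BXD families, the AXB and BXA families had 1099 called genes of 7513 (14.6%), so a call there is common. The called genes Phkg1 and Tsnax changed in the same direction as in the 3 strains: Phkg1 fell by 1.20 (SE 0.16, limma adjusted p = 7.46e-07) and Tsnax rose by 0.24 (SE 0.06, adjusted p = 0.00523). Slc25a51 differed by -0.24 (SE 0.11) without a call (adjusted p = 0.127), and by 0.12 when the 11 BXH families took the place of BXD. Nipsnap2 rose by 1.11 (SE 0.14, adjusted p = 1.71e-07), Trafd1 fell by 0.52 (SE 0.08, adjusted p = 5.65e-06) and Baiap2l1 rose by 3.16 (SE 0.42, adjusted p = 3.35e-07). Against BXH, whose parent C3H/HeJ had a Baiap2l1 level of 10.57, the difference of Baiap2l1 was -0.40 and not called.

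The panels share no array with the strain comparison. Over the 455 genes with an unadjusted p under 0.05, 360 (79.1%) had the same sign in AXB and BXA minus BXD, against 61.4% of all genes, and 123 (27.0%) were called there with that sign, against 11.1% of all genes. With the Gapdh control difference as a covariate these came to 69.9% and 11.9% of the 455, against 55.8% and 3.89% of all genes. That difference had a median of -0.32 in AXB and BXA and -0.21 in BXD, so it moved in the same direction in both comparisons. Against BXH, where 6.52% of genes were called, 59.6% of the 455 had the same sign, against 52.7% of all genes. Of the 13 genes without overlap, all 13 had the same sign against BXD and 6 were called, among them Bcat2 (-1.68, adjusted p = 3.63e-05). Against BXH, 8 of the 13 (61.5%) had the same sign and 5 were called. With the covariate against BXD, 12 had the same sign and 3 were called.

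Each of the 3 hearts also differed from all others on its own. A gene was counted when a strain lay at least 1 log2 unit beyond the other 27, and the 28 strains had from 0 to 15 such genes with a median of 4. BALB/cJ and A/J had 1 each and SEA/GnJ had 6. With 1 array per strain these values carry no test.

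In A/J the gene was Gas5, a non-coding host gene of small nucleolar RNAs, at 7.06 log2 units against 5.001 in SEA/GnJ and at most 4.79 in the 25. Its dimmer probe sets gave 3.63 and 3.66 in A/J, level with the other strains. In AXB and BXA, 8 of 26 families were high, at 6.17 to 7.42, and the other 18 were at 3.70 to 4.77, so the A/J level recurred on separate arrays. Gas5 was higher in AXB and BXA than in BXD by 0.96 (SE 0.24, limma adjusted p = 0.00388). Dnajc10, a disulfide reductase of the endoplasmic reticulum, was at 6.15 in A/J, 0.91 log2 units below the next strain, and all 3 of its probe sets were low there, at 6.15, 5.18 and 4.47. In 16 families it was at 5.92 to 6.62 and in 10 at 7.03 to 7.50, and it fell by 1.12 against BXD (SE 0.12, adjusted p = 5.13e-10). That difference also holds a high level in BXD, where 21 of 29 families were nearer DBA/2J (7.88) than C57BL/6J (7.36) and 22 lay above all AXB and BXA families. H2-T23, the mouse counterpart of HLA-E, was lowest in A/J at 6.35 and nearer that level in 13 of 26 families. A low level was not particular to A/J, since 8 of the 25 strains were at 6.71 to 7.21 and the other 17 at 8.18 to 10.24.

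BALB/cJ stood apart in Cyp3a11, a drug-metabolising enzyme of liver, at 5.04 against at most 3.95. The liver list moved with it: 9 of its 12 members on the array were among the 3 highest in BALB/cJ, Alb at 7.52 against a median of 3.63 and Apoa1 at 5.46 against 3.32. Rtf2 was at 7.94 in BALB/cJ against at most 7.02 elsewhere, and its second probe set was also high, at 7.29 against a mean of 6.14 in the 25.

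In SEA/GnJ, 3 of the 6 genes were members of the fat or liver lists, at low levels. Adipoq, the adipocyte hormone adiponectin, was at 3.69 against 4.82 to 9.32 in the 25, Car3, the carbonic anhydrase abundant in fat, at 4.02 against 5.61 to 9.68, and Cyp2e1 at 3.28 against 4.89 to 8.75. Scd1, the stearoyl-CoA desaturase, was lowest there as well, at 5.97. Of the 8 white adipocyte markers on the array, 3 were lowest in SEA/GnJ: Adipoq, Car3 and Retn, the last at 3.17. The list mean was lowest there too, at 6.07 against 6.51 to 7.97, but it restates these 3 genes. Over the other 5 members, an alternative chosen after the values were seen, SEA/GnJ was at 7.53, within the 7.32 to 8.23 of the 25, and Fabp4 (11.40) and Pparg (6.22) were among them. Cyp2e1 was the only 1 of the 12 liver markers on the array that was lowest in SEA/GnJ. Alb, at 3.48, and Apoa1, at 3.36, lay near the medians of the 25, 3.63 and 3.32. The mean of the liver list was lowest in SEA/GnJ, at 3.81 against 3.89 to 5.76 in the 25, but it includes Cyp2e1. In whole heart RNA fewer cells of a type and less RNA per cell cannot be told apart. The other 3 genes were Bcr, a GTPase regulator, at 7.30 against at most 5.70, Smarcal1, a DNA annealing helicase, at 5.89 against at least 7.17, and Aldh1l1, a folate enzyme, at 5.07 against at most 4.06. Each of these had a second, dim probe set, at 3.13 to 3.26 in SEA/GnJ and a mean of 3.23 to 3.32 in the 25, without such a difference.

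Tmem71 was lowest in BALB/cJ and SEA/GnJ and was not low in A/J. It was at 4.05 in BALB/cJ and 3.87 in SEA/GnJ, but at 7.08 in A/J, against 4.66, 7.10 and 7.72 as the lowest, median and highest of the 25. C3H/HeJ (4.66), CBA/J (5.25) and CE/J (5.73) were the lowest of the 25, so low levels were not confined to the pair. Tmem71 was the only gene in which this pair lay at least 0.5 log2 units beyond all 26 other strains, and neither pair with A/J had one. Without A/J its difference was -2.93 (limma, adjusted p = 0.00892). Pdxdc1 was low in the same pair, at 3.48 and 3.06 against 8.22 in A/J, but did not set the pair 0.5 log2 units beyond all 26 others. A second probe set of Pdxdc1 was high in the pair, at 7.58 and 7.93 against 2.94. The highest count of such genes for any pair of the 28 strains was 20.

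**Figure D3:**
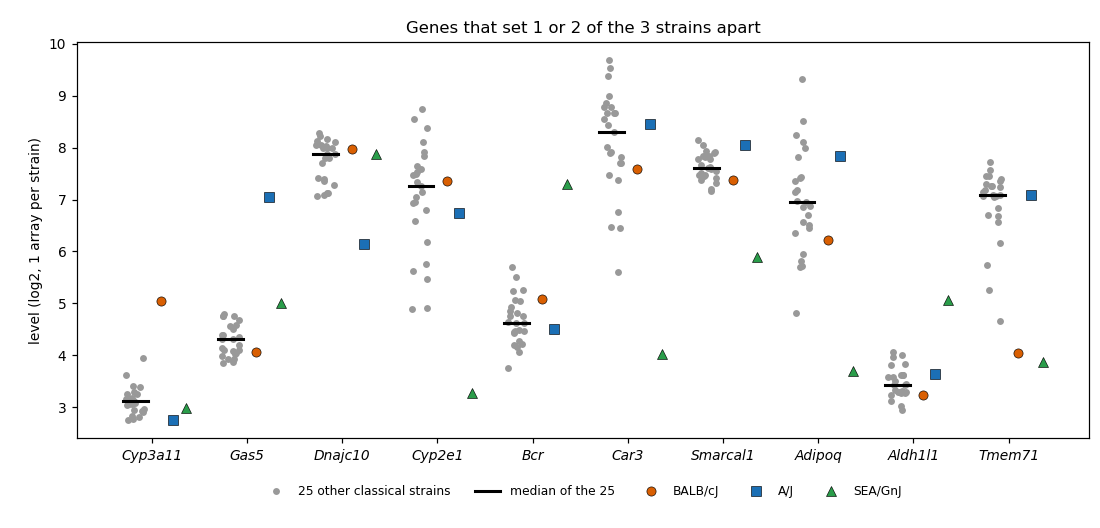
Levels (log2, 1 array per strain) of the 8 genes in which BALB/cJ, A/J or SEA/GnJ lay at least 1 log2 unit beyond all other strains, with Dnajc10 and Tmem71; symbols as by strain name, grey points the 25 others and the bar their median. SEA/GnJ is lowest in Cyp2e1, Car3, Smarcal1 and Adipoq, and Tmem71 is low in BALB/cJ and SEA/GnJ but not in A/J.

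The 3 hearts resembled each other more than most pairs, but only BALB/cJ had its nearest strain among the 3. A/J and SEA/GnJ differed by at least 1 log2 unit in 164 genes, A/J and BALB/cJ in 175 and BALB/cJ and SEA/GnJ in 190, against a median of 244 over the 378 pairs. From the most alike pair downwards they ranked 12, 25 and 44. The nearest strain to A/J was BTBR T<+> tf/J, with 128 genes, the lowest count of any pair, and it was also the nearest to SEA/GnJ, with 163. BALB/cJ was nearest to A/J. By the median size of the difference over all genes the 3 pairs ranked 50, 97 and 169 of 378. A/J had a median of 198 genes over its 27 pairs, SEA/GnJ 229 and BALB/cJ 273, so A/J was near to many strains.

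**Figure D4:**
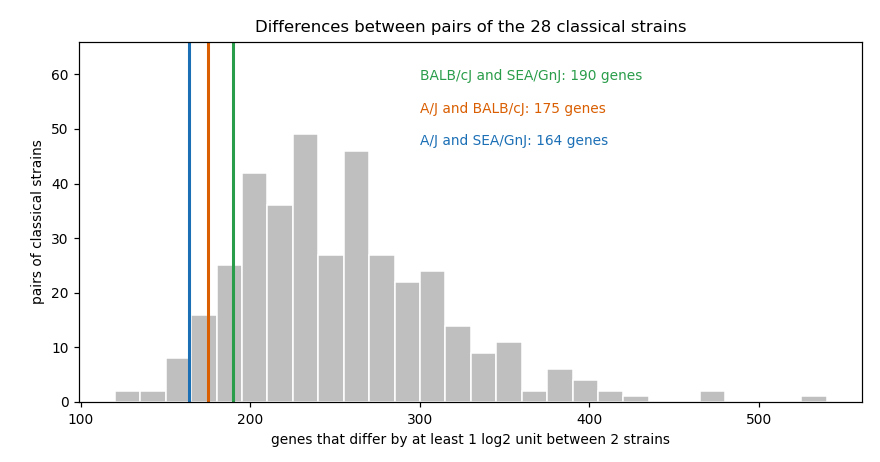
Number of genes that differ by at least 1 log2 unit (horizontal axis) over the 378 pairs of classical strains (bars, number of pairs), with the 3 pairs among A/J, BALB/cJ and SEA/GnJ as lines. The lines are at 164, 175 and 190 genes, left of the median of 244.

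No member of the gene lists for heart programmes and cell types passed the test. In 29 lists of at least 5 tested genes, none of 454 genes was called by limma, and 21 (4.63%) had an unadjusted p under 0.05, against 6.06% of all genes. The medians of the lists ran from -0.35 for fast skeletal muscle to 0.17 for heat shock and endoplasmic reticulum chaperones, beside -0.01 for all genes, of which 48.5% were positive. Fast skeletal muscle markers were high on comparison arrays such as 129X1/SvJ, at a list mean of 7.66: the 3 strains, at 4.68 to 4.79, were not below the median of the 25 (4.67), and the median difference was -0.59 with the Gapdh covariate. Of the chaperones 19 of 24 were positive, led by Hyou1 (0.39, adjusted p = 0.813) and Dnajb9 (0.28, adjusted p = 0.817), and the median was 0.17 with the Gapdh covariate too. Of proteasome subunits 23 of 28 were positive, at a median of 0.05, but 15 with the covariate, at 0.01. Of endothelial markers 14 of 17 were negative, at a median of -0.07, and 0.03 with the covariate. Oxidative phosphorylation (44 genes) had a median of -0.01, sarcomere genes (21) of -0.02 and fatty acid oxidation (24) of -0.04.

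Of 13 tested genes of the cardiac stress programme 8 were positive and 5 negative, with a median of 0.03 (0.17 with the Gapdh covariate) and no call, and 4 (30.8%) had an unadjusted p under 0.05. Those 4 were Acta1 and Nppb, given next, Timp1 (1.08) and Hmox1 (-0.99). This list too was chosen with earlier results of these data known, so the share is a description only. Acta1, the skeletal alpha-actin of the fetal heart programme, was at 12.71, 12.22 and 12.30 log2 units in BALB/cJ, A/J and SEA/GnJ against 9.95, 11.37 and 12.61 as the lowest, median and highest of the 25 (1.14, adjusted p = 0.691). Nppb, brain natriuretic peptide, was at 12.23, 11.83 and 11.66 against 9.71, 11.18 and 12.01 (0.71, adjusted p = 0.691). In calcium handling Trdn, triadin of the calcium release complex, was at 8.41, 8.23 and 8.69 against a median of 8.89 (-0.50, adjusted p = 0.431). Nppb rose in AXB and BXA minus BXD (0.51, adjusted p = 0.00310), whereas Acta1 differed by 0.00 there.

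**Figure D5:**
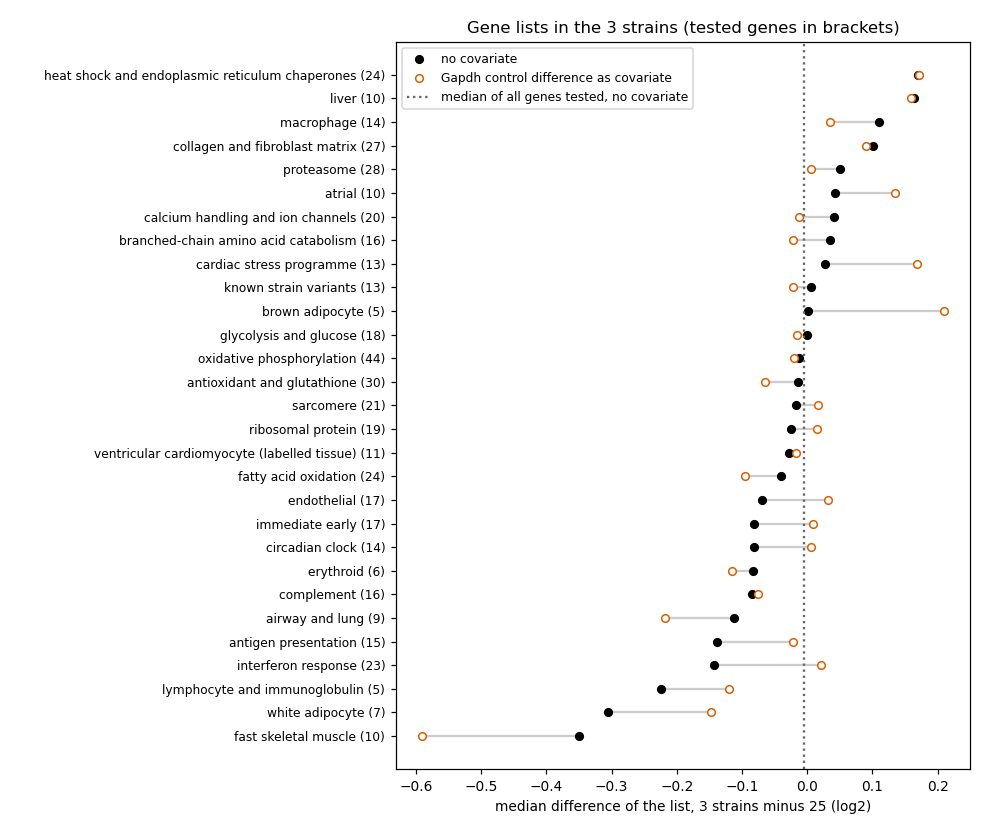
Median difference (log2, 3 strains minus 25) of each gene list of at least 5 tested genes, without a covariate (filled) and with the Gapdh control difference as covariate (open); brackets give the number of tested genes and the dotted line the median of all genes. The chaperone list is at 0.17 in both, and the endothelial list passes from -0.07 to 0.03.

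Known strain variants gave only a limited check on the labels, through Dysf for the A/J array. Dysf, the membrane repair protein dysferlin that is mutated in A/J, was at 5.60 in A/J, below every other classical strain (5.83 or more), and at 6.23 in BALB/cJ and 6.47 in SEA/GnJ. Of 26 families, 6 were nearer A/J for Dysf. Glo1, the glyoxalase whose copy number varies among strains, was at 10.48 in A/J, 10.04 in SEA/GnJ and 8.90 in BALB/cJ, and the median of the 25 was 8.81 (0.90, adjusted p = 0.738). Tlr4, the endotoxin receptor, was at 5.69, 6.00 and 5.99 in BALB/cJ, A/J and SEA/GnJ against a median of 5.35 (0.52, adjusted p = 0.686). It rose in AXB and BXA minus BXD (0.51, limma adjusted p = 0.000699), where BXD includes the line BXD29-Tlr4<lps-2J>/J. The difference without that line was not tested. Of 13 tested genes of the list limma called none, and 3 (23.1%), Tlr4, Glo1 and Bcat2, had an unadjusted p under 0.05, against 6.06% of all genes. The list was chosen with earlier results of these data known, so this share is a description only. The differences of Hc, Nnt, H2-Ea, Cox7a2l, Gsto1 and Prkdc were between -0.10 and 0.07, and those of Alad and Ide were 0.25 and -0.29. Apoa2, also a member of the liver list, differed by 0.62, at 6.98 in BALB/cJ but 4.06 in A/J and 4.43 in SEA/GnJ against a median of 4.29, and by -0.29 without BALB/cJ. A second probe set of H2-Ea, an MHC class II gene, gave 2.39 where the brightest gave 0.02, so its probe sets disagree. Bmp5, mutated in SEA/GnJ, and Tyr, mutated in albino strains, fell under the filter on dim genes, at 3.60 and 3.26 in SEA/GnJ, so their levels check nothing. Myo5a, Tyrp1, Slc11a1, Cdkn2a, Abcc6 and Naip5 were under it as well, at 3.00 to 3.58 in the 3 strains.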

How the data were processed

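Per the submitters' processing notes, GCOS and RMA (no versions given) produced the deposited log2 values, which cover 22416 probe sets, 89 controls included, on 99 arrays. RMA subtracts background, equalises the arrays' distributions and summarises the probes of a set in log2 units. Scanner files were not used here, so probe-level effects could not be examined. The platform annotation named the probe sets (17783 with 1 symbol, 284 with several, 4349 with none here; 17759 matched RefSeq by Entrez identifier). The brightest probe set stood for a gene, and a gene was tested where its mean exceeded 3.59, the 40th percentile of all probe sets. No source used here states the annotation's genome build, so only the RefSeq windows carry coordinates.

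Tests used limma (version 3.58.1, R 4.3.3; lmFit and eBayes) on the 2 compared groups alone with no covariate, with Benjamini-Hochberg adjustment over 7513 genes. Near-isogenic lines (AXB19, AXB19a and AXB19b, and BXD24/TyJ with BXD24/TyJ-Cep290<rd16>/J) were averaged, which left 26 AXB and BXA and 29 BXD families. On simulated data of 7513 genes for the 3 against 25, limma recovered 31 of 67 genes changed by 0.5, 58 of 67 by 1 and 66 of 66 by 2 log2 units, with 8 false calls. The simulation used independent normal noise with each gene's standard deviation in the 25, and shifted genes picked at random. Genes that take 2 separate ranges among strains, such as Baiap2l1, are unlike this, so these rates need not hold for the real hearts. The members and gene lists were chosen with earlier results of these data known. Named were the 15 largest calls per direction, the 10 smallest adjusted p, list members that were called or largest, known variants on the array and up to 6 genes per strain of its own; all others, such as Egln1, Tmem71 and Rtf2, were chosen after their values were seen. Python 3.11.15 (pandas 2.3.3, matplotlib 3.10.9) was also used.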

Additional observations from a re-analysis of the deposited data

How the results depend on the processing

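The count of 3 called genes became 5 with the title number as a covariate (all 3 shared), 7 probe sets when every probe set was tested (10874 tested), 1 without arrays with markers of another organ (Tmem71, with 2 and 18 arrays left), 1 without C57BL/6J, C57L/J and C58/J (Slc25a51) and 0 with the mean of the probe sets, where 438 genes had an unadjusted p under 0.05 by limma. The setting without organ arrays dropped A/J and so left BALB/cJ and SEA/GnJ, the pair low in Tmem71. BALB/cJ stayed in that setting although its liver list, at 5.43, was second highest of the classical strains. Leaving out BALB/cJ, A/J or SEA/GnJ gave 2 to 5 calls, of which 2, 1 and 1 were among the 3 genes. Slc25a51 was not called with the mean of the probe sets (-0.26) or without organ arrays (-0.99, adjusted p = 0.0874), and was between -1.02 and -0.99 without any 1 of the 3 strains. Tsnax was not called with the mean of the probe sets (0.50), without organ arrays (0.41) or without the C57 strains (0.47), and was between 0.45 and 0.53 without any 1 strain. Phkg1 was not called with the mean of the probe sets (-2.17), the Gapdh (-2.10) or the Actb covariate (-2.03), without organ arrays (-1.83) or without the C57 strains (-1.97), and was between -2.31 and -1.82 without any 1 strain. All 3 kept their direction in the 13 alternatives with 1 value per gene, with adjusted p from 0.000345 to 0.530 for Slc25a51, 0.0108 to 0.313 for Tsnax and 0.0167 to 0.293 for Phkg1. In AXB and BXA minus BXD, 2 of the 3 genes were called, and 1 without organ arrays. With BXH in place of BXD the sign turned for Slc25a51 (0.12), Pign (-0.17), Cav2 (0.035), Igsf10 (0.052), Arf1 (-0.10), Prkar1a (-0.074) and Baiap2l1 (-0.40), and with the Gapdh covariate for Arf1 (-0.0019). The cause was not tested, and 8 of the 11 BXH arrays carried markers of another organ. No paired analysis was possible because the labels give the groups no shared replicate numbers.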
